A study of Ambystoma mexicanum with 12 samples.

Results

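The genes described here were higher in proximal than in distal limb blastemas of the axolotl under the solvent DMSO. With talarozole, the distal mean of each gene stayed less than 0.5 log2 units from that under DMSO, on the scale given below. The genes were chosen by measured values of the same 12 libraries. Of 99081 identifiers in the table, 56805 carry the prefix AMEX60DD without the further letter U, and 21835 of those had at least 10 counts in at least 3 libraries. Levels were taken as log2(CPM + 0.5), where CPM is the count scaled to the column total of its library. Of the 21835 genes, 864 had a DMSO proximal mean at least 1 log2 unit above the DMSO distal mean, and 100 of the 864 also had both talarozole means less than 0.5 log2 units from the DMSO distal mean. The 100 were ordered by the gap, which is the lowest of the 3 proximal values minus the highest of the 9 distal values, and the first 60 were taken. The order, the fold changes and the distances between the groups below are therefore descriptions of how the genes were selected, and no test on these libraries supports them.

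After amputation, a salamander limb regrows from the blastema, a bud of proliferating progenitor cells under wound epidermis. In limb regeneration retinoic acid is known for giving cells a more proximal identity, that is, one nearer the shoulder. CYP26 enzymes break retinoic acid down, and talarozole (TAL) inhibits them, so that TAL raises the retinoic acid made by the tissue itself. Genes of the Meis family are known as proximal markers along this axis, and late members of the Hox clusters mark its distal end.

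All animals were white (d/d) axolotls, 3 months old and 5 cm long, with amputated forelimbs. DMSO proximal blastemas came from limbs cut at the upper humerus, with DMSO in the housing water. The distal blastemas came from limbs cut at mid-carpal level, with DMSO alone, with 0.1 uM TAL or with 1 uM TAL, the drug itself being dissolved in DMSO. Water was dosed from 4 days post amputation for 7 days, and blastemas were frozen at 14 days, after some days without drug. No proximal blastema was given TAL. Each of the 4 groups held 3 libraries, and each library was a pool of 3 blastemas. The labels do not say whether pools came from separate animals, so p-values measure the spread between these pools, which may be technical.

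Library totals ranged from 8409618 to 13937318 estimated counts. The common biological coefficient of variation over the 41884 genes tested, 20347 of them AMEX60DDU identifiers, was 1.01, a wide spread between libraries of a group. Replicate 1 of 1 uM TAL stood apart: it was the highest of the 9 distal libraries for 36.4% of all genes past the count minimum that had distal counts. Among the 57 selected genes with distal counts it was the highest for 2 (3.51%), a share that depends on the selection. The rule bounded the 1 uM TAL mean and ranked on the highest distal value. DMSO distal replicate 2 was the highest of its group for 59.9% of genes. When the selection was repeated without replicate 1 of 1 uM TAL, 46 of the 60 genes were selected again, and without DMSO distal replicate 2, 32 were.

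The deposited identifiers are not paired with gene names. None of them matched the RefSeq list for the assembly UKY_AmexF1_1 (0 of 99081), so no gene can be given a role here. A list of limb axis and retinoic acid pathway genes and a list of markers for muscle, cartilage, epidermis, blood, connective tissue and nerve sheath could not be looked up, and the labelled tissue was not checked against markers. The genes are ordered below by their pattern. In pooled tissue, fewer cells of a type and less RNA per cell cannot be told apart.

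The 60 genes were mostly of low abundance. Their mean CPM in DMSO proximal libraries ran from 0.997 to 56.0 with a median of 3.78; 24 genes averaged under 3 CPM there and 14 averaged at least 10 CPM. The median over genes was 0.949 CPM in DMSO distal, 1.10 CPM in 0.1 uM TAL and 0.928 CPM in 1 uM TAL libraries. In estimated counts, the genes had 5 to 569 per proximal library with a median of 35.5, and 0 to 474 per distal library with a median of 12.5. The difference of group means, DMSO proximal minus DMSO distal, ran from 1.00 to 3.94 log2 units with a median of 1.36, beside a median of -0.01 over all 21835 genes.

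By library, the median log2(CPM + 0.5) of the 60 genes was 1.97, 2.38 and 1.94 in DMSO proximal replicates 1 to 3. It was 0.86, 0.59 and 0.41 in DMSO distal, 1.16, 0.75 and 0.46 in 0.1 uM TAL, and 0.54, 0.49 and 1.07 in 1 uM TAL replicates. The 3 proximal libraries lay above all 9 distal ones, and the distal groups overlapped each other. Summed over the 60 genes, the level was 467, 545 and 518 CPM in DMSO proximal, 139, 248 and 171 CPM in DMSO distal, 229.8, 254 and 152 CPM in 0.1 uM TAL, and 182, 199.9 and 189.6 CPM in 1 uM TAL. Each distal library had between 8 and 15 of the 60 genes at 0 counts (13.3% to 25%), while no proximal library had any, which the rule favours. Of all genes past the count minimum, 6.52% to 8.88% were at 0 in a distal library. In a proximal library 7.87% to 10.8% of all genes were.

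**Figure D1:**
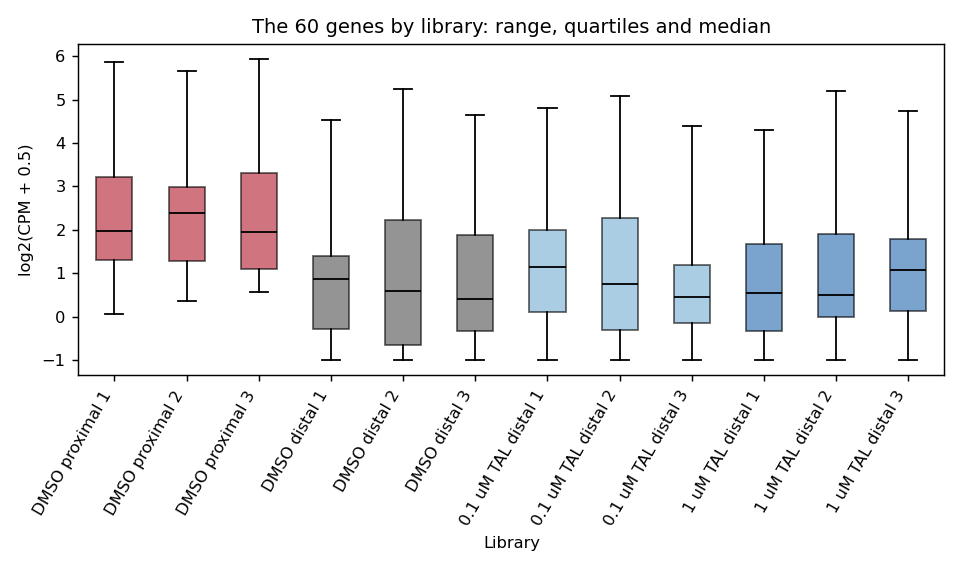
Levels of the 60 genes in each of the 12 libraries, as log2(CPM + 0.5); boxes give the quartiles, the line the median and the whiskers the lowest and highest gene. The proximal medians lie between 1.94 and 2.38 and the 9 distal medians between 0.41 and 1.16.

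In 32 of the 60 genes every proximal library exceeded every distal library. Over all 21835 genes 152 did so (0.696%), and since the ranking used this same quantity, the 32 are set beside that share without being read against it. Of the other 120 such genes, 57 had a proximal difference of at least 1 log2 unit and lay outside the limits on the TAL differences. Against the 3 DMSO distal libraries alone, 47 of the 60 did not overlap, where 1193 of 21835 (5.46%) did so. The gap ran from -0.62 to 3.28 log2 units with a median of 0.03, so that many of the 60 genes sit near the point where proximal and distal libraries meet.

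**Figure D2:**
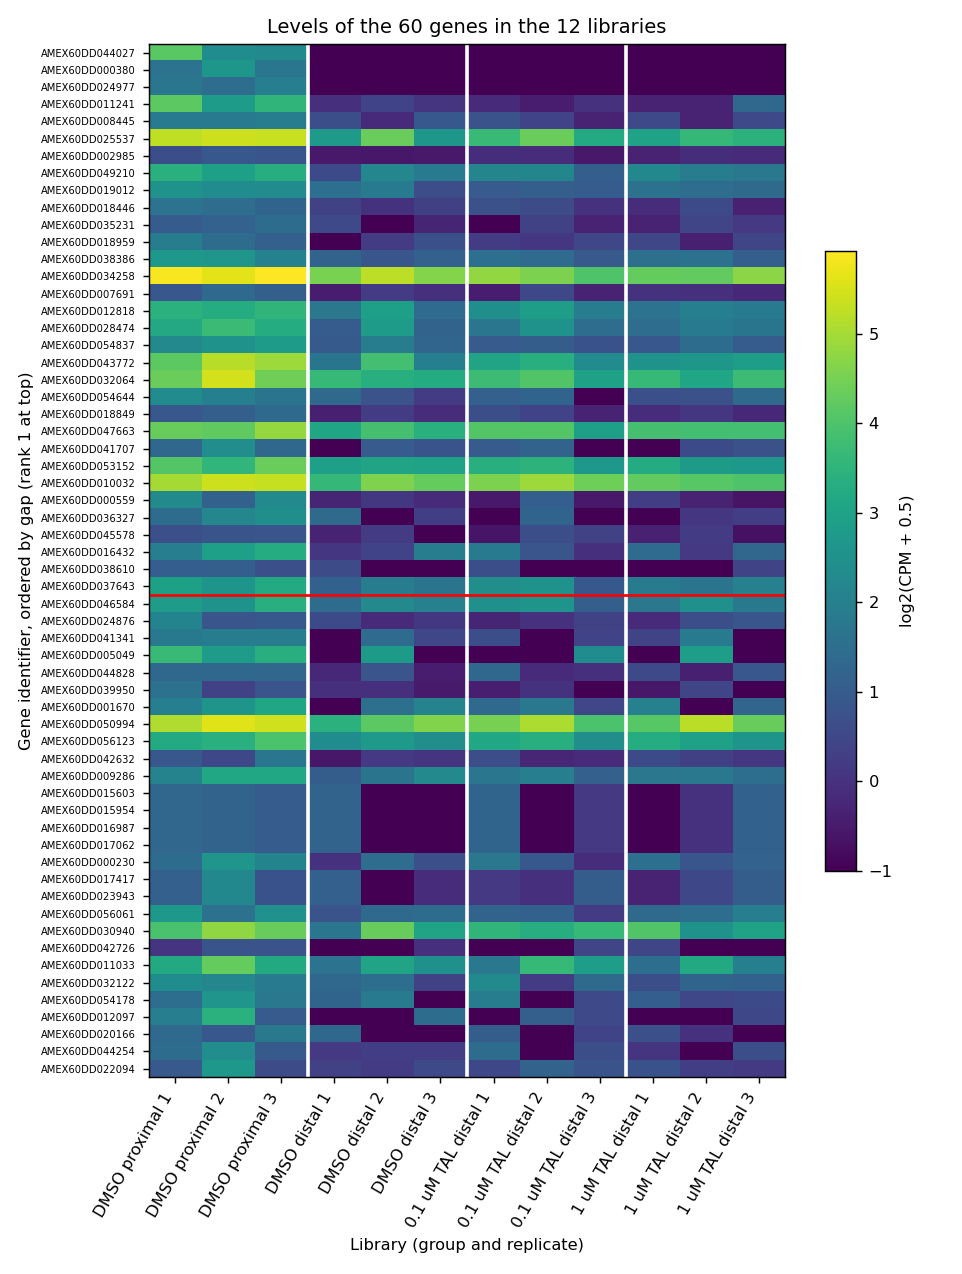
Levels of the 60 genes (down the page, in order of the gap) in the 12 libraries (across), as log2(CPM + 0.5). Lighter colours are higher levels; in the 32 genes above the red line every proximal library is higher than every distal one, and below the line at least 1 distal library reaches the lowest proximal one.

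Presence in proximal and absence in distal libraries was the first of the patterns among the 60 genes. AMEX60DD044027 had 17.3, 4.70 and 4.37 CPM in DMSO proximal libraries (171, 40 and 37 counts) and 0 counts in all 9 distal libraries. AMEX60DD000380 had 2.64, 5.82 and 2.79 CPM in DMSO proximal libraries (26, 50 and 23 counts) and 0 counts in the 9 distal ones. AMEX60DD024977 had 2.79, 2.29 and 3.39 CPM in DMSO proximal libraries (28, 20 and 29 counts), again with 0 counts in the 9 distal libraries. No other selected gene was at 0 in every distal library. A count of 0 over the 9 distal libraries together allows up to 3 counts, or 0.0306 CPM, for counting error only. Against that floor the proximal mean of 8.79 ± 7.37 CPM (SD, n = 3) in AMEX60DD044027 was at least 287-fold higher. Without proximal replicate 1 that mean was 4.54 CPM and the bound 148-fold. For AMEX60DD000380, at 3.75 ± 1.79 CPM (SD, n = 3), it was at least 122-fold higher, and for AMEX60DD024977, at 2.82 ± 0.554 CPM (SD, n = 3), at least 92.1-fold higher. The proximal replicates of AMEX60DD044027 differed widely, with replicate 1 far above the others, while those of AMEX60DD024977 were close. With edgeR's quasi-likelihood test the adjusted p for DMSO proximal against DMSO distal was 0.598, 0.653 and 0.653 in that order of genes.

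The second pattern was a low distal level in every distal group, the genes shown having a mean of at most 0.821 CPM over the 9 distal libraries. AMEX60DD011241 had 17.9, 6.56 and 11.2 CPM in DMSO proximal, 0.459, 0.813 and 0.521 CPM in DMSO distal, 0.409, 0.222 and 0.494 CPM in 0.1 uM TAL, and 0.298, 0.304 and 2.06 CPM in 1 uM TAL libraries. The lowest proximal value was well above the highest distal one, and that highest value came from 1 library of 1 uM TAL, with 25 counts against 4 in each of the other replicates. Its proximal mean was 19.8 times the DMSO distal mean and 19.1 times the mean of the 9 distal libraries. The edgeR log2 fold change was 4.30 (SE 0.844) against DMSO distal, with an adjusted p of 0.342, and 4.29 (SE 0.554) against the 3 distal groups, with an adjusted p of 0.0916. These were the lowest adjusted p-values of any selected gene in both contrasts, and neither passed 0.05. Without replicate 3 of 1 uM TAL, the library with 25 counts, the edgeR log2 fold change against the distal groups was 4.86 (SE 0.347) with an adjusted p of 0.00839. Over all edgeR settings tried, the adjusted p ran from 0.00839 to 0.361 in this contrast and from 0.105 to 0.793 against DMSO distal.

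AMEX60DD008445 had 3.18, 3.16 and 3.24 CPM in DMSO proximal, 1.08, 0.406 and 1.37 CPM in DMSO distal, 1.20, 0.819 and 0.303 CPM in 0.1 uM TAL, and 0.949, 0.300 and 0.957 CPM in 1 uM TAL libraries. Its proximal libraries were nearly equal, at 3.19 ± 0.0449 CPM (SD, n = 3), and every distal library was lower. AMEX60DD002985, at few counts, had 1.08, 1.38 and 1.27 CPM in DMSO proximal, 0.192, 0.185 and 0.201 CPM in DMSO distal, 0.444, 0.414 and 0.196 CPM in 0.1 uM TAL, and 0.298, 0.438 and 0.399 CPM in 1 uM TAL libraries. AMEX60DD018446 had 2.59, 2.29 and 1.86 CPM in DMSO proximal, 0.793, 0.503 and 0.732 CPM in DMSO distal, 1.15, 1.03 and 0.487 CPM in 0.1 uM TAL, and 0.426, 0.964 and 0.284 CPM in 1 uM TAL libraries. In both genes the proximal libraries did not overlap the distal ones, and the proximal mean was 4.05 and 3.18 times the mean of the 9 distal libraries. The distal groups of AMEX60DD018446 overlapped each other. In AMEX60DD002985 every 1 uM TAL library lay above every DMSO distal one, at 4, 6 and 5 counts against 2 in each DMSO distal library. Its 0.1 uM TAL libraries overlapped both of these groups.

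AMEX60DD035231 had 1.51, 1.76 and 2.22 CPM in DMSO proximal, 0.957, 0 and 0.321 CPM in DMSO distal, 0, 0.755 and 0.290 CPM in 0.1 uM TAL, and 0.299, 0.864 and 0.614 CPM in 1 uM TAL libraries. AMEX60DD018959 had 3.23, 2.22 and 1.69 CPM in DMSO proximal, 0, 0.682 and 1.12 CPM in DMSO distal, 0.683, 0.578 and 0.898 CPM in 0.1 uM TAL, and 0.887, 0.256 and 0.854 CPM in 1 uM TAL libraries. Each was undetected in at least 1 distal library and present in all proximal ones, without overlap. AMEX60DD000559 had 4.35, 1.71 and 4.52 CPM in DMSO proximal, 0.323, 0.594 and 0.406 CPM in DMSO distal, 0.193, 1.62 and 0.199 CPM in 0.1 uM TAL, and 0.726, 0.305 and 0.149 CPM in 1 uM TAL libraries. Here proximal replicate 2 and replicate 2 of 0.1 uM TAL nearly met.

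The third pattern was a graded difference in genes that every distal library also expressed. AMEX60DD025537 had 37.9, 41.6 and 40.1 CPM in DMSO proximal, 6.22, 19.9 and 5.83 CPM in DMSO distal, 12.2, 20.02 and 8.90 CPM in 0.1 uM TAL, and 7.50, 11.8 and 10.4 CPM in 1 uM TAL libraries. Replicate 2 was the highest library in each distal group, yet stayed well below the lowest proximal one. The group means were 39.8 ± 1.86 CPM in DMSO proximal, 10.6 ± 7.999 CPM in DMSO distal, 13.7 ± 5.72 CPM in 0.1 uM TAL and 9.90 ± 2.21 CPM in 1 uM TAL (SD, n = 3 each). The edgeR log2 fold change against DMSO distal was 1.97 (SE 0.464, adjusted p = 0.546).

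AMEX60DD034258 was the most abundant of the 60 genes, with 57.6, 49.9 and 60.5 CPM in DMSO proximal, 22.7, 37.5 and 24.6 CPM in DMSO distal, 27.3, 23.0 and 15.8 CPM in 0.1 uM TAL, and 19.1, 18.8 and 26.1 CPM in 1 uM TAL libraries. The group means of DMSO proximal and DMSO distal differed by 1.00 log2 unit, right at the limit of selection, and no distal library reached the proximal ones. Against the 3 distal groups together the edgeR log2 fold change was 1.26 (SE 0.170), with an adjusted p of 0.0926. AMEX60DD050994 had 33.8, 47.5 and 42.5 CPM in DMSO proximal, 10.2, 17.8 and 24.2 CPM in DMSO distal, 22.3, 33.6 and 15.1 CPM in 0.1 uM TAL, and 17.1, 36.3 and 19.5 CPM in 1 uM TAL libraries. In this gene replicate 2 of 1 uM TAL exceeded the lowest proximal library, so the groups overlapped.

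AMEX60DD049210 had 9.997, 7.16 and 9.53 CPM in DMSO proximal, 0.965, 4.13 and 3.14 CPM in DMSO distal, 3.98, 4.07 and 1.65 CPM in 0.1 uM TAL, and 4.17, 3.33 and 2.93 CPM in 1 uM TAL libraries. AMEX60DD019012 had 5.27, 4.66 and 4.60 CPM in DMSO proximal, 2.41, 3.05 and 1.06 CPM in DMSO distal, 1.48, 1.64 and 1.52 CPM in 0.1 uM TAL, and 2.51, 2.26 and 2.12 CPM in 1 uM TAL libraries. In neither gene did a distal library reach the proximal ones, and the proximal means were 2.82 and 2.42 times the mean of the 9 distal libraries. In all, 35 of the 60 genes, some of them of the second pattern, were detected in every distal library. The matching share over all genes is not given here.

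**Figure D3:**
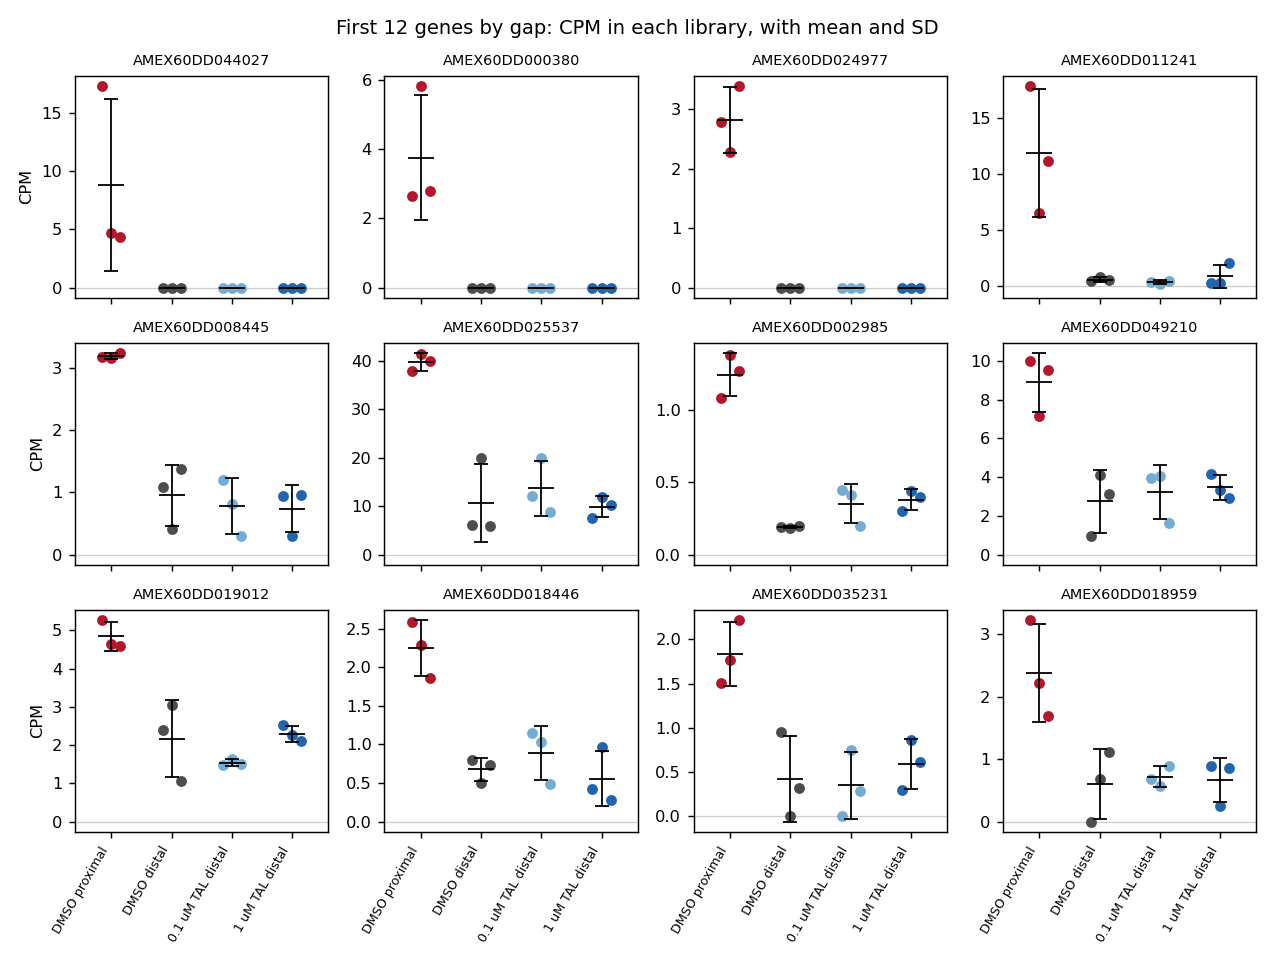
CPM in each library for the 12 genes with the largest gap, by group; points are libraries, bars the mean and SD (n = 3 each). In each gene the lowest proximal point lies above every distal point, and AMEX60DD044027, AMEX60DD000380 and AMEX60DD024977 are at 0 in all 9 distal libraries.

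Some genes were at 0 in at least 3 distal libraries and present in others. They were 9 of the 28 genes with overlap, with 6 distinct profiles, and 3 of the 32 without, AMEX60DD041707, AMEX60DD036327 and AMEX60DD038610. AMEX60DD012097 had 3.39, 10.2 and 1.49 CPM in DMSO proximal, 0, 0 and 2.21 CPM in DMSO distal, 0, 1.62 and 0.946 CPM in 0.1 uM TAL, and 0, 0 and 0.907 CPM in 1 uM TAL libraries. AMEX60DD005049, chosen for display after its values were seen, had 12.1, 6.67 and 9.77 CPM in DMSO proximal, 0, 6.38 and 0 CPM in DMSO distal, 0, 0 and 4.72 CPM in 0.1 uM TAL, and 0, 6.82 and 0 CPM in 1 uM TAL libraries. In the second gene exactly 1 library of each distal group carried the transcript, with 52 to 89 counts, near the lowest proximal level, and the rest had none.

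Identical profiles occurred. AMEX60DD015603, AMEX60DD015954, AMEX60DD016987 and AMEX60DD017062 shared the same value in all 12 libraries, as did AMEX60DD017417 and AMEX60DD023943, so the 60 identifiers hold 56 distinct profiles. The set of 4 had 1.93, 1.80 and 1.53 CPM in DMSO proximal, 1.80, 0 and 0 CPM in DMSO distal, 1.84, 0 and 0.614 CPM in 0.1 uM TAL, and 0, 0.497 and 1.73 CPM in 1 uM TAL libraries. The pair had 1.70, 4.23 and 1.19 CPM in DMSO proximal, 1.68, 0 and 0.420 CPM in DMSO distal, 0.618, 0.447 and 1.56 CPM in 0.1 uM TAL, and 0.313, 0.905 and 1.57 CPM in 1 uM TAL libraries. Both overlapped between proximal and distal. Shared profiles made up 10% of the 60 genes and 2.85% of the 21835. How salmon divided reads between such identifiers cannot be seen from the table, and their values are uncertain.

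Under TAL the rule held every gene within 0.5 log2 units of DMSO distal. The 0.1 uM TAL minus DMSO distal difference ran from -0.48 to 0.50 with a median of 0.21, beside a median of -0.06 over all genes. The 1 uM TAL minus DMSO distal difference ran from -0.43 to 0.47 with a median of 0.10, beside 0.15 over all genes. Both differences share the DMSO distal libraries, whose mean the rule required to lie below the proximal mean. That favours genes with low DMSO distal values in these libraries, which can raise both differences. The medians and the shares above 0 are therefore descriptions and are not read as a response to TAL. Without 0.1 uM TAL replicate 1 the median at 0.1 uM was 0.02, without DMSO distal replicate 1 it was 0.03, without DMSO distal replicate 3 0.10, without 0.1 uM TAL replicate 2 0.11, and without 0.1 uM TAL replicate 3 it was 0.38. At 1 uM it was 0 without DMSO distal replicate 3, 0.16 without DMSO distal replicate 2, 0.00 without DMSO distal replicate 1, 0.07 without 1 uM TAL replicate 3 and 0.12 without 1 uM TAL replicate 1, the library that stood apart. At 0.1 uM 41 of the 60 genes lay above 0 and 16 below; at 1 uM 40 lay above and 17 below, the 3 genes absent from distal libraries being at 0. Above 0 were thus 68.3% of the 60 genes at 0.1 uM, where 43.2% of all genes were, and 66.7% at 1 uM, where 67.5% of all genes were. The set of 4 and the pair with identical profiles lay above 0 at both doses, and each of their identifiers is counted. With DESeq2 size factors the counts were 41 above and 16 below at 0.1 uM, and 31 above and 26 below at 1 uM. At 1 uM the median of all genes moved with the scaling, from 0.15 with column totals to 0.05 with DESeq2 size factors, and relative to it the median of the 60 genes was -0.05 and -0.03. At 0.1 uM it was 0.26 and 0.25 above that of all genes.

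The genes nearest the limits show what was let in. At 0.1 uM AMEX60DD025537, given above, had the largest positive difference, 0.50, and AMEX60DD045578 the next. AMEX60DD045578 had 1.12, 1.24 and 1.26 CPM in DMSO proximal, 0.305, 0.685 and 0 CPM in DMSO distal, 0.159, 1.08 and 0.757 CPM in 0.1 uM TAL, and 0.273, 0.667 and 0.119 CPM in 1 uM TAL libraries. Its 0.1 uM TAL libraries spanned almost the whole distal range. AMEX60DD036327 had the most negative difference at both doses, with 2.21, 4.16 and 5.02 CPM in DMSO proximal, 2.12, 0 and 0.709 CPM in DMSO distal, 0, 1.85 and 0 CPM in 0.1 uM TAL, and 0, 0.574 and 0.718 CPM in 1 uM TAL libraries. AMEX60DD054837 had 4.29, 5.34 and 6.60 CPM in DMSO proximal, 1.44, 3.31 and 1.89 CPM in DMSO distal, 1.47, 1.55 and 1.18 CPM in 0.1 uM TAL, and 1.35, 2.23 and 1.53 CPM in 1 uM TAL libraries. Its distal values overlapped across the 3 distal groups. At 1 uM AMEX60DD000230 had the largest positive difference, 0.47, just above that of AMEX60DD050994. AMEX60DD000230 had 2.25, 5.64 and 3.84 CPM in DMSO proximal, 0.494, 2.29 and 1.10 CPM in DMSO distal, 2.89, 1.36 and 0.412 CPM in 0.1 uM TAL, and 2.40, 1.30 and 1.78 CPM in 1 uM TAL libraries. Its TAL libraries overlapped both the DMSO distal and the proximal ones.

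A mean difference below 0.5 log2 units does not show that TAL left a gene unchanged, since in 56 of the 60 genes the libraries of at least 1 distal group spanned more than 0.5 log2 units. Within DMSO distal 46 genes did so, within 0.1 uM TAL 51 and within 1 uM TAL 43. The 0.5 added to CPM also shrinks differences at low levels. AMEX60DD002985 averaged 0.19 CPM in DMSO distal, 0.35 CPM in 0.1 uM TAL and 0.38 CPM in 1 uM TAL libraries. Its edgeR log2 fold changes were 0.83 (SE 0.741) and 0.89 (SE 0.737), beside 0.28 and 0.34 on the scale of the rule. At 1 uM AMEX60DD012097 had -1.27 (SE 2.19) by edgeR and -0.315 on that scale. The difference between the doses, 1 uM TAL minus 0.1 uM TAL, ran from -0.71 to 0.76 log2 units over the 60 genes with a median of -0.03. The highest of the 9 distal libraries belonged to DMSO distal in 18 of the 57 genes with distal counts (31.6%), to 0.1 uM TAL in 28 (49.1%) and to 1 uM TAL in 11 (19.3%). Over all genes with distal counts these shares were 29.7%, 22.8% and 47.5%. The rule bounded both TAL means and ranked on the highest distal value, so the shares of the selected genes depend on the selection. Replicates 1 and 2 of 0.1 uM TAL each held 14 of the 28, and replicate 3 held 0. The 14 of replicate 1 include the 4 identifiers that share 1 profile, each counted. As a description of how the genes vary together within groups, over 1540 pairs of distinct profiles Pearson's r of the deviations from group means, across the same 12 libraries, ran from -0.96 to 0.97 with a median of 0.088.

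With edgeR's quasi-likelihood test over 41884 genes and Benjamini-Hochberg adjustment, 58 of the 60 genes entered the test. None of them passed an adjusted p of 0.05 in any of 5 contrasts. Of the 41884 genes tested, 20347 were AMEX60DDU identifiers, which the rule had left out. For DMSO proximal against DMSO distal, edgeR called 0 genes of all tested higher (0%). An unadjusted p under 0.05 in that direction was reached by 1339 genes (3.20%), with 34 of the 58 among them. DESeq2 called 213, of which 9 were among the 53 selected genes with an adjusted p. For DMSO proximal against the 3 distal groups together, 2 genes were called higher (0.00478%), AMEX60DD018915 and AMEX60DD019011, neither selected. AMEX60DD018915 averaged 37.95 CPM in DMSO proximal, 7.47 CPM in DMSO distal, 9.49 CPM in 0.1 uM TAL and 11.1 CPM in 1 uM TAL libraries. For AMEX60DD019011 the means were 69.6 CPM in DMSO proximal, 28.2 CPM in DMSO distal, 14.5 CPM in 0.1 uM TAL and 23.6 CPM in 1 uM TAL libraries. Both lay outside the limits on the TAL differences. The 2 calls depended on the fit: there were 0 with the replicate number as a block, 0 with no filter on low counts, and 0 in 10 of the 12 fits that left out a library. In that contrast 1430 genes (3.41%), 37 of them selected, were higher with an unadjusted p under 0.05. DESeq2 called 157, of which 18 were selected genes. The rule chose the 60 genes on these same differences, so their counts in both contrasts are descriptions and no support. The share of all genes that DESeq2 called is not given here.

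For 0.1 uM TAL against DMSO distal edgeR called 0 genes (0%). An unadjusted p under 0.05 was reached by 1353 genes (3.23%), with none of the 58 among them. DESeq2 called 154, none of them selected. For 1 uM TAL against DMSO distal edgeR called 10 genes (0.0239%). There 2005 genes (4.79%) had an unadjusted p under 0.05, again with 0 selected genes. DESeq2 called 457 and 0 selected. Between 1 uM and 0.1 uM TAL edgeR called 5 genes (0.0119%). In that contrast 2528 (6.04%) had an unadjusted p under 0.05, 1 of them selected. DESeq2 called 415 and 0 selected, and the shares of all genes it called are not given here. With the replicate number as a block, edgeR called 0 genes at 1 uM TAL against DMSO distal and 0 between the doses. Selection bounded both doses against DMSO distal, which limits what these contrasts can show for the selected genes; the difference between the doses was bounded only through them.

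The limit of 60 fell where the gap changed little. The last genes inside were AMEX60DD044254, with a gap of -0.50, and AMEX60DD022094, with -0.62. AMEX60DD022094 had 1.43, 5.95 and 0.992 CPM in DMSO proximal, 0.773, 0.668 and 0.955 CPM in DMSO distal, 0.926, 1.80 and 1.22 CPM in 0.1 uM TAL, and 1.17, 0.725 and 0.621 CPM in 1 uM TAL libraries. AMEX60DD044254 had 2.25, 4.73 and 1.45 CPM in DMSO proximal, 0.620, 0.722 and 0.689 CPM in DMSO distal, 2.25, 0 and 1.07 CPM in 0.1 uM TAL, and 0.537, 0 and 1.08 CPM in 1 uM TAL libraries. In both, proximal replicate 2 carried most of the difference. Just outside, AMEX60DD041972 had 1.32, 1.44 and 1.41 CPM in DMSO proximal, 0, 0 and 2.31 CPM in DMSO distal, 0, 1.41 and 1.04 CPM in 0.1 uM TAL, and 1.01, 1.98 and 0 CPM in 1 uM TAL libraries. AMEX60DD054339, the next outside at a gap of -0.63, had 23.6, 79.8 and 47.2 CPM in DMSO proximal, 10.9, 31.6 and 23.1 CPM in DMSO distal, 34.4, 36.9 and 14.5 CPM in 0.1 uM TAL, and 14.5, 18.3 and 34.6 CPM in 1 uM TAL libraries. All 4 overlapped the 9 distal libraries; the pair inside the limit lay above the 3 DMSO distal libraries, and the pair outside did not.

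The selection was repeated under 16 settings: 2 other scalings, 2 other pseudocounts and the omission of each library in turn. No gene was selected in all 16. AMEX60DD000559, AMEX60DD008445, AMEX60DD011241, AMEX60DD018446, AMEX60DD028474, AMEX60DD032064 and AMEX60DD038386 were selected in 15. AMEX60DD022094, AMEX60DD045578 and AMEX60DD056123 were selected in 5, and 15 genes in at most 8. The 3 genes absent from distal libraries were selected in 13, because without a proximal library they no longer had 3 libraries at the count minimum.

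**Figure D4:**
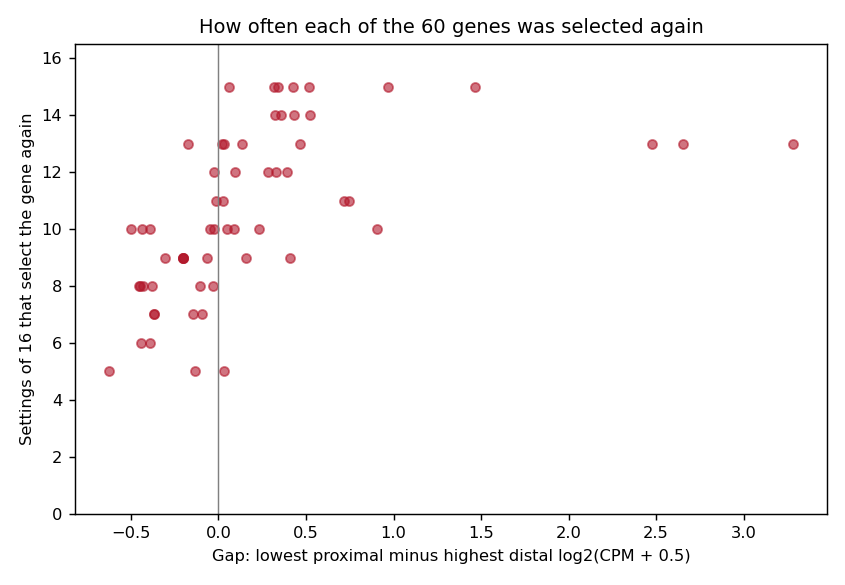
For each of the 60 genes, the gap in log2 units (across) and the number of 16 settings that selected it again (up). No point reaches 16; 7 genes lie at 15 and 3 at 5, and the 3 points at the far right, absent from distal libraries, lie at 13.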

How the data were processed

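The authors deposited estimated counts per gene for 12 described libraries. The name of the table gives salmon as their source, and the submitters' processing notes list Trimmomatic 0.38 and Salmon 0.13.1, without order or role. The index and annotation are not given in the sources used here. Of 15 columns of libraries, 3 matched no described sample and were not used. Groups came from the sample titles. CPM were computed by column total and levels as log2(CPM + 0.5). For tests, counts were rounded, filtered with filterByExpr, scaled by TMM and fitted in 1 edgeR 4.0.16 quasi-likelihood model of the 4 group means (limma 3.58.1, R 4.3.3). DESeq2 1.42.0 was an alternative. Adjusted p-values of that edgeR model are Benjamini-Hochberg over all 41884 genes. DESeq2, and edgeR fits with other libraries or no filter, adjusted over their own sets of genes. Standard errors are the log2 fold change over the square root of F. Scripts were tested on simulated counts. Selected genes and lists were chosen with earlier results of these data known. Named genes are ranks 1 to 12 by the gap, the 3 most abundant in proximal libraries, the 3 with the largest fold and at least 10 counts in a distal library, the 2 largest and smallest differences at each dose, and those on either side of the limit. No sequences or coordinates are printed, because identifiers were not annotated. Counting limits cover counting error only.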

Additional observations from a re-analysis of the deposited data

Results flagged for a closer look

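The doses differed by the test of 1 uM TAL against 0.1 uM TAL in 5 genes (edgeR adjusted p under 0.05), all lower at 1 uM: AMEX60DD012191, AMEX60DD017703, AMEX60DD021953, AMEX60DD021956 and AMEX60DDU001003157. The count was 0 with the replicate number as a block, 0 in a fit of only the 6 libraries compared, and 0 in 10 of the 12 fits that left out a library. None of the 5 is among the 60 genes.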

How the results depend on the processing

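Of the 60 genes, 33 were selected again with a pseudocount of 0.1, 35 with 1, 19 with TAL differences under 0.25, 22 without limits on TAL, 9 with a proximal difference of at least 2 and 37 with AMEX60DDU identifiers admitted; only 32 genes in all met the third of these and 12 the fifth. Leaving out each library in turn, 23 to 50 were selected again, with 23, 32 and 34 without DMSO proximal replicates 1 to 3, 31, 32 and 39 without DMSO distal replicates 1 to 3, and at least 43 without any TAL library. The median proximal difference was 1.84 with a pseudocount of 0.1 and 1.03 with 1, the smaller pseudocount giving low levels more weight. For DMSO proximal against DMSO distal, DESeq2's test called 213 genes higher and edgeR with DESeq2 size factors 1, and leaving out a library gave 0 to 4, the most without 0.1 uM TAL replicate 3. Against the 3 distal groups these were 157, 1 and 0 to 2, with 0 when no filter was used. For 0.1 uM TAL against DMSO distal DESeq2 called 154, and leaving out a library gave 0 to 1. For 1 uM TAL against DMSO distal DESeq2 called 457, no filter gave 4, the 6 libraries alone 0 and leaving out a library 0 to 13. Between doses the values were 415, 3, 0 and 0 to 14. Omitting 0.1 uM TAL replicate 3 gave the 13 and the 14, and 10 of the 12 omissions left 0 calls between doses. Over these edgeR settings the only selected gene called was AMEX60DD011241, against the 3 distal groups without 1 uM TAL replicate 3 (adjusted p = 0.00839). The causes were not tested. With the replicate number as a block, all 5 contrasts gave 0 calls. No pairing by replicate number was seen: same-numbered libraries had a mean correlation of deviations of -0.0135, against 0.00672 for others. Single values ran from -0.212 to 0.194 and from -0.179 to 0.191, so a pairing by number is not excluded. An alternative counting identical identifiers once, added after seeing the data, kept all 56 distinct profiles. Leaving out copies only shortens the ordered list and can push no profile out, so this outcome was fixed in advance. Depth limits the many genes under 3 CPM, whose distal values rest on few counts.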
